A study of Mus musculus with 2 samples.

Results

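The genes described are 35 tubulins, stathmins and microtubule-binding proteins, compared between retinas of wild-type and Sox11-/- (knockout) mouse embryos. Both embryos were on the C57BL/6 background, both were at embryonic day 18, and the labels call them littermates. The RNA of 1 retina per genotype was hybridised to 1 Affymetrix array, so 2 arrays were compared. With 1 array per genotype there was no spread between animals, no error and no test, and each difference given is a difference between 2 arrays. Which part of Sox11 the knockout removes is not stated in the labels. The 35 genes were listed by family, though with earlier results of these data known. The probe sets were taken whose annotation gave exactly 1 gene symbol that was among these genes. Of the 18193 genes with such probe sets, 33 were these genes, measured by 90 probe sets. Tuba1b and Tuba1c had none, because the probe sets that name them, among 5 such probe sets of the family, also name other genes. Each gene took the probe set with the highest mean intensity of the 2 arrays. All 33 genes passed a low-value filter, an intensity of at least 18.6 (the pooled median) on at least 1 array, as did 11553 of the 18193 genes.

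Microtubules are hollow polymers of alpha and beta tubulin that grow and shrink at their ends. In a growing neuron they fill the axon and dendrites and carry transport, and most of their partners either stabilise the polymer (the structural microtubule-associated proteins, or MAPs, and the doublecortin family), bind free tubulin (stathmins and collapsin response mediators) or ride the growing end (end-binding proteins). Sox11 belongs to the SoxC transcription factors, which act in newly formed neurons, and Tubb3 and Dcx, which encode the neuronal class III beta tubulin and doublecortin, are known targets of these factors. The comparison asks whether microtubule genes, the neuronal ones above all, differ in the retina without Sox11.

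The promoters of the known targets are shown first, with that of Stmn3, one of the stathmins with a brightest probe set more than 25% lower on the knockout array. They are the 250 bases before the start in RefSeq's GRCm38.p6 table, which held 28 promoter windows of 23 of the 35 genes, and are written 5′ to 3′ on the strand of the gene, with ACAAAG or ACAATG, a pair of motifs of the Sox kind, in capitals on either strand. The Tubb3 window is chr8:123411303-123411552 on the plus strand, and its motif letters read on the other strand. The Stmn3 window is chr2:181314501-181314750 on the minus strand. For Dcx only the 20 bases around the match are given (chrX:143933125-143933144, minus strand), since its window lies inside the span of other Dcx transcripts.
Tubb3: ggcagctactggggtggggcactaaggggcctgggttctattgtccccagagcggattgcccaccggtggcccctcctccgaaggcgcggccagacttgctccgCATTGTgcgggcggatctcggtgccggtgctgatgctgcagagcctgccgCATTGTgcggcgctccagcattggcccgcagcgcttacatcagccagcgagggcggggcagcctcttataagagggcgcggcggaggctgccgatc
Stmn3: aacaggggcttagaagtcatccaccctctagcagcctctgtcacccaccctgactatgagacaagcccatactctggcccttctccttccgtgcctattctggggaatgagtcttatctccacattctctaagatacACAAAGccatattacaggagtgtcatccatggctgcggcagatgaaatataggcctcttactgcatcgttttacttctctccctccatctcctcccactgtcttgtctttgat
Dcx: ggagctcagacaACAAAGgc

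Tubb3 held ACAATG at 2 places, beginning 146 and 96 bases before the start, Stmn3 held ACAAAG 113 bases before it, and Dcx held ACAAAG 8 bases before the later of its starts. At least 1 of the motifs was in 10 of the 28 windows, which belong to 9 of the 23 genes (Crmp1, Dclk1, Dclk2, Dcx, Dpysl5, Stmn3, Tuba8, Tubb3 and Tubb5). Stmn4, the other stathmin more than 25% lower, was not among these 9, and only genes with a window could be. Over all 32851 windows of the table, 25.2% held at least 1 of them, 16.5% ACAAAG and 10.7% ACAATG. A match is a description of letters and not a binding site.

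The known SoxC targets were level between the arrays. In each pair of intensities below, the wild-type array comes first. Tubb3 read 743.7 and 753.6. Its log2 ratio was 0.019, where a log2 ratio is that of knockout over wild type after 5 was added to each intensity, so that the change of dim genes is understated. Dcx, which stabilises microtubules in migrating neurons, read 421.9 and 419.9, a log2 ratio of -0.0068. Neither gene differed by more than the 0.26 by which, as a pooled SD, the log2 ratios of probe sets of a gene differed among themselves over all genes. Tubb3 had 1 probe set. The 4 probe sets of Dcx gave log2 ratios from -0.12 to 0.28, and the other bright one read 438.4 and 402.7. Dcx lies on the X chromosome, and the embryos differed in sex-linked transcripts: Xist, the RNA of the inactive X, read 12.3 and 922.7, and the Y-linked Eif2s3y read 214.0 and 4.7. Genotype and sex therefore cannot be told apart for any gene here.

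The calls at 1.5-fold and 25% were made after 5 was added to each intensity, as for the log2 ratios. Of the 33 genes, 1 was at least 1.5-fold higher on the knockout array and none was that much lower. The shares of all 11553 genes were 3.81% and 2.17%. A looser bound was the higher value exceeding the lower by at least 25%, with 5 added to both. By it 2 were higher and 3 lower, that is 6.06% and 9.09%, against 11.2% and 8.6% of all genes. So 28 of the 33 lay within the 25% bound, and 9 within 0.1 log2 units of no difference. Of the 3 lower ones, Tuba8 was below the filter on the knockout array, so it is not shown to be past that bound. The members were mostly bright: 28 had an intensity of at least 109.4, the pooled 75th percentile, on at least 1 array. Among the 7122 genes that bright, 1.56% were 1.5-fold higher, 1.08% 1.5-fold lower, 6.15% 25% higher and 6.12% lower by that bound. Of those 28 members, 1 was 1.5-fold higher and 0 were 1.5-fold lower, and 1 was past the 25% bound higher and 2 lower. These shares are near the background. After quantile normalization or loess the looser calls were 2 higher and 5 lower, against 8.26% and 11.7% of all genes with the former and 8.88% and 10.9% with the latter.

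**Figure D1:**
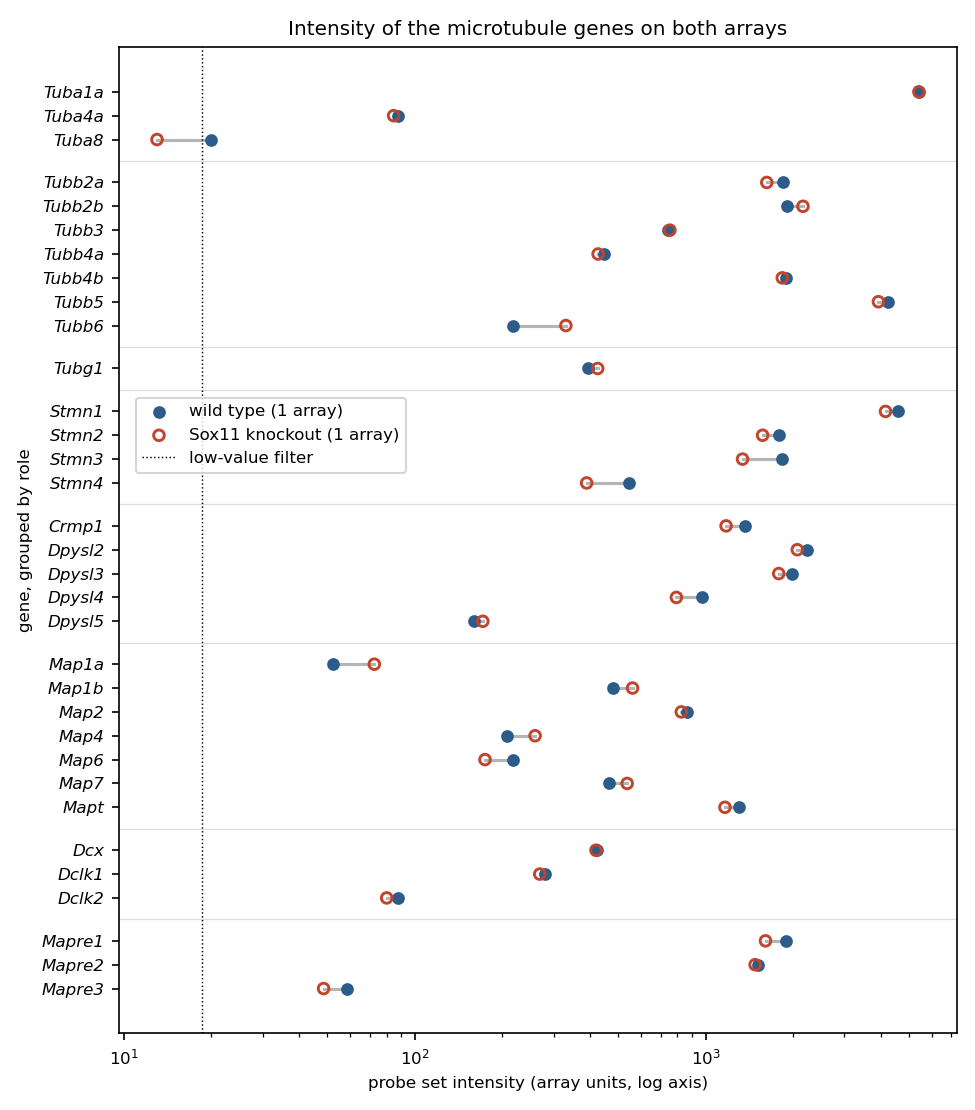
Intensity of each of the 33 genes on the wild-type array (filled) and the Sox11 knockout array (open), on a log axis in array units and grouped by role; each point is 1 array. Most pairs nearly coincide, as for Tubb3 at 743.7 and 753.6, and the widest gaps are those of Tubb6, Stmn3, Stmn4, Map1a and Tuba8.

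Among alpha tubulins, Tuba1a, the main alpha tubulin of young neurons, was the same on both arrays. Its intensities were 5406.0 and 5410.6, a log2 ratio of 0.0012, from a probe set with an x suffix, which can also match other transcripts. Tuba4a, a widely expressed alpha tubulin, read 87.5 and 84.6, a log2 ratio of -0.046. Tuba8, a divergent alpha tubulin, read 19.9 and 13.0. Its log2 ratio of -0.47 rests on values around the filter, and the knockout value below it gives only a bound of at least 1.07-fold lower. The other Tuba8 probe set, below the filter on both arrays, read 13.9 and 15.3, a log2 ratio of 0.10.

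By their brightest probe sets, the other beta tubulins of neurons lay within the 25% bound, in both directions. Tubb2a read 1838.5 and 1622.7, a log2 ratio of -0.18, from a probe set with an s suffix, which can match other transcripts. Its second, dimmer probe set, without a suffix, read 58.1 and 41.6, a log2 ratio of -0.44 and past the 25% bound. Tubb2b, which is abundant in newborn neurons, read 1906.4 and 2161.2, a log2 ratio of 0.18. Tubb4a, a beta tubulin of mature neurons and glia, read 446.8 and 426.9, a log2 ratio of -0.065. Tubb2a and Tubb2b are close paralogs, so their values are uncertain where a probe set matches both.

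By the brightest probe sets and with 5 added, the general beta tubulins held the largest difference of the whole set. Tubb6, a beta tubulin of non-neuronal cells, read 218.2 and 330.8, 1.5-fold higher with a log2 ratio of 0.59, and its dimmer probe set gave 0.34. It lay so close to the bound that 5 of 9 other ways of processing, with ratios from 0.47, no longer placed it past 1.5-fold. Tubb5, the main beta tubulin of dividing cells, read 4252.3 and 3926.9, a log2 ratio of -0.11. The second Tubb5 probe set read 227.9 and 148.2, a log2 ratio of -0.60, so both lay below 0 but by unlike amounts. Tubb4b, a beta tubulin found in most cells, read 1886.7 and 1834.5, a log2 ratio of -0.040. Tubg1, the gamma tubulin from which microtubules are nucleated, read 395.3 and 425.6, a log2 ratio of 0.11.

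Markers of some non-neuronal tissues and cells were also higher on the knockout array, on which Tubb6 was higher, while those of others were mixed. Folds of markers are ratios of the intensities without the added 5, unlike the log2 ratios. Where 1 array was below the filter, the fold is given as a bound with that value set to 18.6. Of 10 listed periocular mesenchyme genes, 9 had a value, with 7 ratios above 0 and 2 below, and 6 of the 7 past the filter passed only through the knockout array. Their summed intensity was 81.6 on the wild-type array and 608.3 on the knockout array, and none was at 0 on either. Col1a2 was 3.88-fold higher, and Col3a1 at least 13.6-fold, Dcn at least 7.17-fold, Lum at least 2.87-fold and Postn at least 2.09-fold. The bound for Col1a1 was only 1.64-fold, and the lower Foxc2 and Twist1 were below the filter on both arrays. All 10 macrophage and microglia genes had a ratio above 0, with sums of 340.4 and 740.1, though Aif1 and Ptprc were below the filter on both arrays and Mpeg1 passed only through the knockout array. C1qa, C1qb, C1qc, Laptm5, Mpeg1 and Tyrobp were at least 2-fold higher. The 11 lens genes were mixed, with 8 ratios above 0 and 3 below and sums of 380.5 and 537.5. Crygb was 2.88-fold and Crygd at least 3.26-fold higher, and the bound for Cryba4 was 1.87-fold, whereas Cryaa, the brightest lens gene, was lower at 116.4 and 79.8, a log2 ratio of -0.52. Of 8 pigment epithelium genes 6 had ratios above 0, with sums of 284.1 and 423.7 and none shown to be past 2-fold, the bound for Ttr being 1.12-fold. The 7 endothelial genes were mixed, with 4 ratios above 0 and 3 below, and 4 of the 7 were below the filter on both arrays. Their sums of 843.6 and 661.6 were mostly Kdr, the brightest, which read 673.2 and 456.1, a log2 ratio of -0.56. The lower sum on the knockout array therefore rests on Kdr and does not describe the group. The bound for Esam, higher on the knockout array, was 1.34-fold. Cryaa and Kdr are named after their values were seen. The part of these tissues and cells in the Tubb6 value was not tested.

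**Figure D2:**
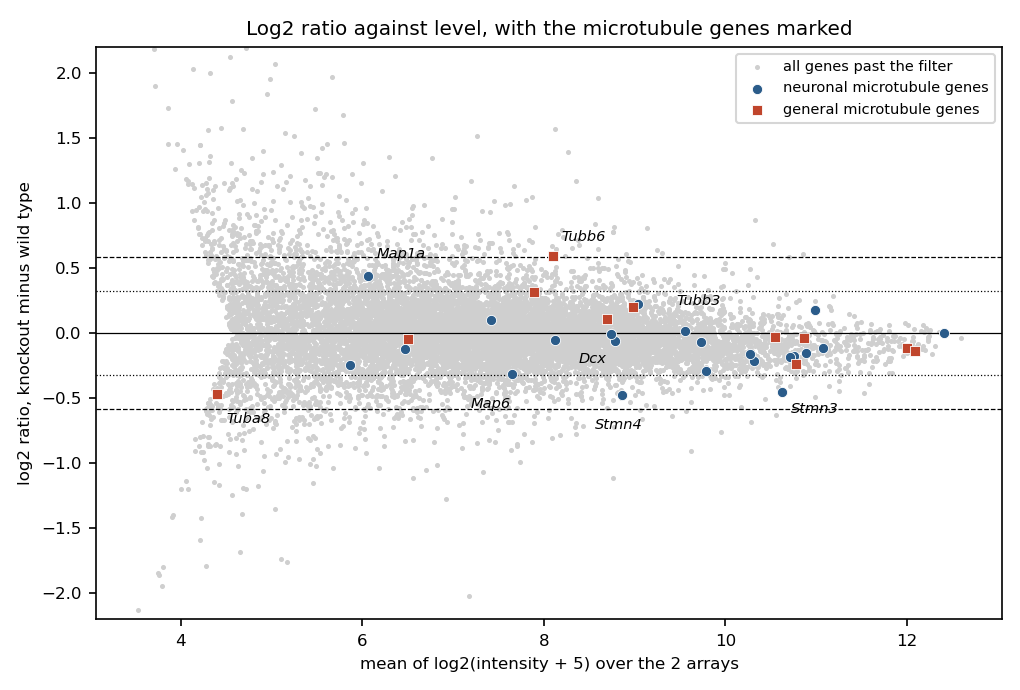
Log2 ratio of knockout minus wild type against the mean log2(intensity + 5) of the 2 arrays, for all 11553 genes past the filter (grey; 12 genes lie outside the plotted range of 2.2) and for the 22 neuronal and 11 general microtubule genes. Dashed and dotted lines mark 1.5-fold and the 25% bound; only Tubb6 lies past the dashed line, and Tubb3 and Dcx lie on the 0 line.

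The stathmins, small proteins that bind tubulin dimers and promote shrinkage of microtubules, had brightest probe sets below 0 in all 4, with a median of -0.32. That median was -0.11 without probe sets with an s, x or a suffix and -0.20 with the median over the probe sets of each gene, and 3 of 4 were then below 0. Stmn3 (SCLIP), a neuronal stathmin, read 1834.1 and 1339.4, a log2 ratio of -0.45, and Stmn4 (RB3), also neuronal, read 545.2 and 389.9, a log2 ratio of -0.48. These were the 2 bright members past the 25% bound on the lower side. Stmn2 (SCG10), which is concentrated in growth cones, read 1780.7 and 1570.2, a log2 ratio of -0.18, and its second probe set gave -0.12. Stmn1, found in neurons and dividing cells alike, read 4581.0 and 4153.8, a log2 ratio of -0.14.

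The second probe sets of Stmn3 and Stmn1 did not repeat these sizes. The second Stmn3 probe set read 530.9 and 518.0, a log2 ratio of -0.035. The brighter Stmn3 probe set carries an x suffix and can match other transcripts. The second Stmn1 probe set lay above 0, with 828.9 and 1028.9 and a log2 ratio of 0.31. Stmn4 had 1 probe set, so it has no such check.

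The collapsin response mediators, cytosolic proteins that bind tubulin and act in axon guidance and growth, were below 0 in 4 of 5, with a median of -0.16 and none past the 25% bound. Crmp1 read 1365.0 and 1175.9, a log2 ratio of -0.21. Dpysl2 (CRMP2), which promotes axon outgrowth, read 2233.8 and 2066.8, a log2 ratio of -0.11. Dpysl3 (CRMP4) read 1988.1 and 1783.8, a log2 ratio of -0.16, with its 3 probe sets between -0.16 and 0.10. Dpysl4 (CRMP3) read 973.4 and 793.3, a log2 ratio of -0.29, and all 3 of its probe sets were below 0. Dpysl5 (CRMP5) was the exception, from 159.5 to 171.4, a log2 ratio of 0.10, though its dimmer probe set gave -0.13.

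Among the structural MAPs, 4 of 7 were above 0 and the median was 0.20. The higher ones were Map1a, Map1b, Map4 and Map7. Map1a, a MAP of mature dendrites and axons, read 52.3 and 72.6, a log2 ratio of 0.44 and the other gene past the 25% bound on the higher side. Its second probe set read 24.3 and 26.4, a log2 ratio of 0.10, and with the median over both, 0.27, Map1a was no longer past that bound. Map1b, its relative in growing axons, read 480.4 and 560.6, a log2 ratio of 0.22. All 3 Map1b probe sets were above 0, the dimmest at 0.83, from 27.7 to 53.2.

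The MAPs classed as general were also above 0. Map4, the widespread MAP of dividing and other cells, read 207.7 and 259.2, a log2 ratio of 0.313, just inside the 25% bound of 0.322 in log2 units. Its 3 probe sets past the filter lay close together, from 0.21 to 0.31. Map7 (ensconsin), a partner of kinesin-1 in epithelia and neurons, read 466.2 and 537.3, a log2 ratio of 0.20, with probe sets up to 0.56.

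The remaining neuronal MAPs were below 0. Map6 (STOP), which makes microtubules resistant to cold, read 218.5 and 174.4, a log2 ratio of -0.317, also just inside the 25% bound. Mapt, the axonal MAP tau, read 1302.4 and 1165.5, a log2 ratio of -0.16, with 3 of its 4 probe sets below 0 and the dimmest at 0.16. Map2, the MAP of dendrites, read 863.8 and 825.0, a log2 ratio of -0.066, but its 3 dimmer probe sets were all above 0, up to 0.43. Neuronal MAPs thus lay on both sides of 0.

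Dclk1 and Dclk2, the doublecortin-like kinases, were near level by their brightest probe sets, as Dcx was. Dclk1 read 280.0 and 269.0, a log2 ratio of -0.057. Its 8 probe sets past the filter ran from -0.33 to 0.74, the widest range among these genes, so no single value stands for Dclk1. Dclk2 read 87.8 and 80.1, a log2 ratio of -0.12.

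All 3 end-binding proteins, which track the growing ends of microtubules, had brightest probe sets below 0. Mapre1 (EB1) read 1896.6 and 1606.6, a log2 ratio of -0.24, with its 5 probe sets between -0.24 and 0.22. Mapre2 (EB2) read 1508.9 and 1479.7, a log2 ratio of -0.028, and its 3 dimmer probe sets past the filter were above 0. Mapre3 (EB3), the form enriched in neurons, read 58.4 and 48.6, a log2 ratio of -0.24, from 1 probe set.

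**Figure D3:**
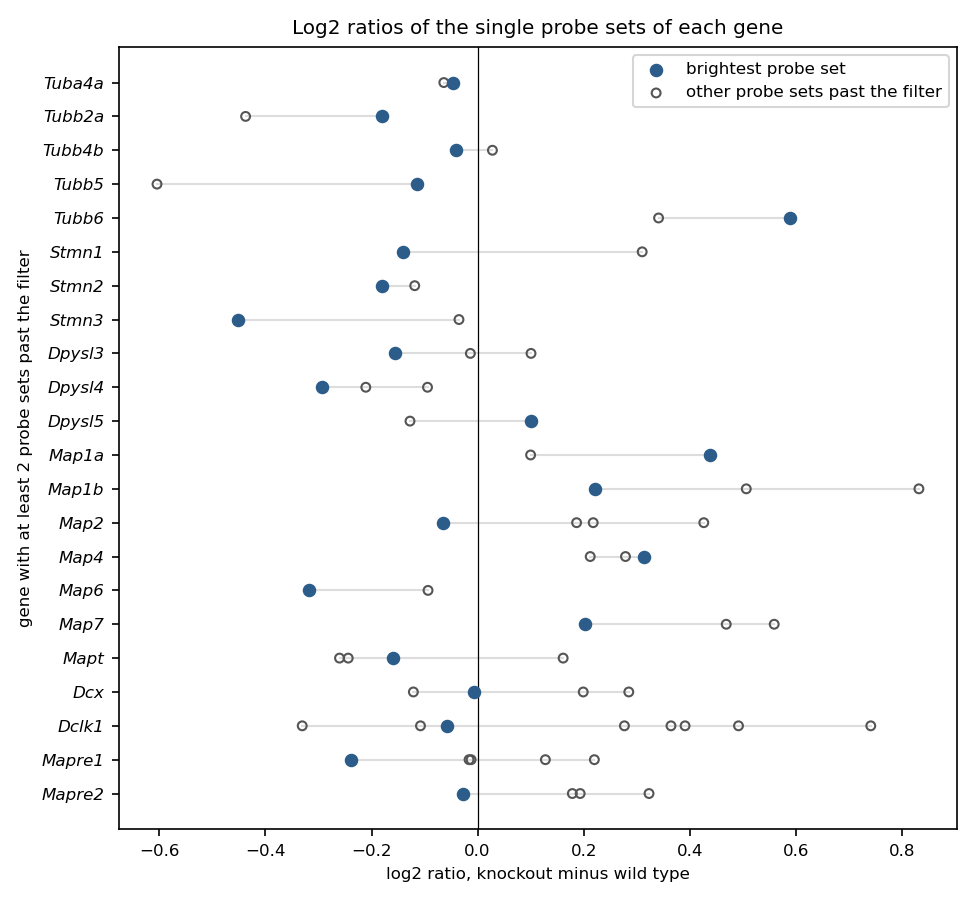
Log2 ratio of each probe set past the filter for the 22 genes with at least 2 of them, with the brightest filled. The probe sets of 10 genes lie on both sides of 0, and those of Dclk1 run from -0.33 to 0.74.

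Probe sets of a gene thus often differed in sign. Of the 22 genes with at least 2 probe sets past the filter, 12 (54.5%) had all on 1 side of 0, against 50.02% of the 5612 such genes on the array. In 15 of the 22 (68.2%) the dimmest probe set had the higher ratio, against 63.3% of all such genes, with a median step from brightest to dimmest of 0.22 for the members and 0.098 for all. The controls for RNA integrity moved little. The 3′ to 5′ intensity ratio of Gapdh was 0.818 on the wild-type array and 0.821 on the other, and that of beta-actin was 1.29 and 1.21.

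Neuronal and general members were then set side by side. The 22 neuronal members had a median log2 ratio of -0.12, with 16 below 0 and 6 above, and 1 past the 25% bound higher (Map1a) and 2 lower (Stmn3 and Stmn4). The 11 general members with a value had a median of -0.040, with 7 below 0 and 4 above. Of them, 1 was past it higher (Tubb6) and 1 lower (Tuba8, on values around the filter). Over all 11553 genes the median was -0.012 and 52.1% were below 0, and over the 7122 bright ones it was -0.034 and 56.9%. Of the 33 members together, 23 (69.7%) were below 0, and 20 (60.6%) after quantile normalization or loess. The general median was 0.028 after quantile normalization and 0.038 after loess, and 0.11 once probe sets with an s, x or a suffix were left out. The neuronal median was below the general one and below 0 in each of these, without a test of the difference.

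**Figure D4:**
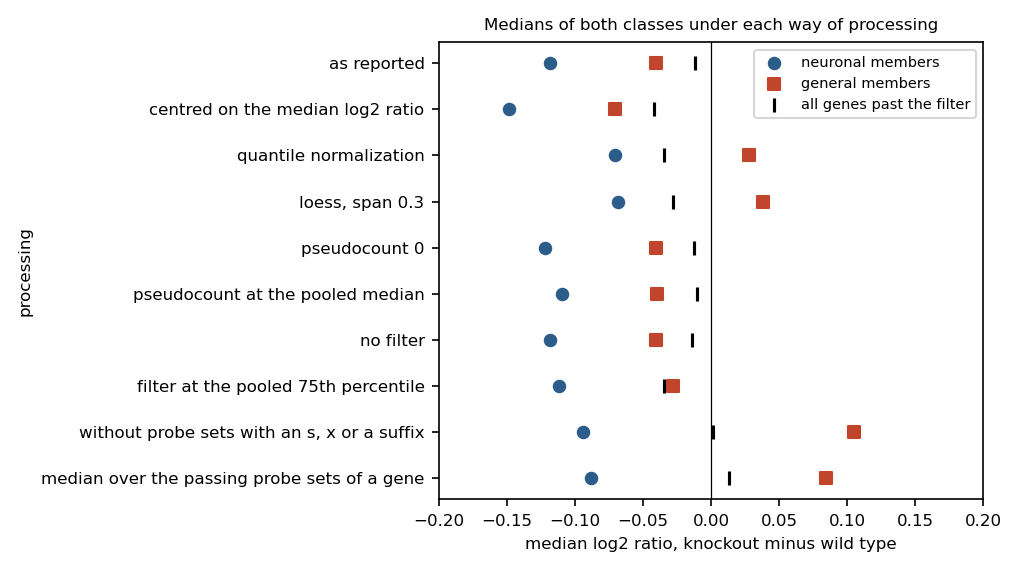
Median log2 ratio (knockout minus wild type) of the neuronal members, the general members and all genes past the filter, under each way of processing. The neuronal median is -0.12 as reported and lies left of the general one under each setting drawn, while the general median lies on either side of 0.

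Markers of the neurons that express these genes were examined alongside. Of 8 retina identity genes, 7 had a value, all 7 within the 25% bound: Pax6 read 2160.9 and 2085.8, Rax 564.8 and 578.9, Six3 767.3 and 691.5, and Six6 1078.6 and 1006.3. Lhx2 read 935.6 and 1071.6, Crx 958.4 and 800.7, and Otx2 1841.2 and 1751.3, and so both arrays carried these markers at like levels. The 12 pan-neuronal genes had a median of -0.0092, 6 below and 6 above 0, with summed intensities of 10179 and 10528. Retinal ganglion cell genes had a median of 0.20, 9 of 10 above 0, with sums of 4443.4 and 5831.0. Of the 10, 3 were at least 1.5-fold higher and 0 that much lower, against 3.81% and 2.17% of all genes. The 3 are named after their values were seen. Atoh7, a transcription factor of ganglion cell precursors, read 945.0 and 1731.0, and without it the sums were 3498.4 and 4100.0. Ebf3 read 304.2 and 479.1, and Isl2 read 63.0 and 98.7. Proliferating progenitor genes had a median of -0.059, 7 of 9 below 0, with sums of 18071 and 16591. All 7 rod genes with a value had ratios below 0, with sums of 986.1 and 398.7, and 3 of them were below the filter on both arrays. Nrl and Sag were 2.19-fold and 5.76-fold lower, and the bound for Pde6b, below the filter on the knockout array, was 1.96-fold. In whole retina, fewer cells of a type and less RNA per cell cannot be told apart. The part of these shifts in the microtubule values was not tested.

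Sox11 itself was measured by 6 probe sets, of which the brightest read 3205.7 and 252.4, a log2 ratio of -3.64. The others ran from -2.43 to 1.08. Among them the second brightest read 836.9 and 740.2, a log2 ratio of -0.18, and the highest ratio came from 328.8 and 701.7. The rest lay at or below -1.19. Which probe sets lie in the deleted part is not known from the labels, and one outside it would check nothing.

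The wider set of microtubule genes was then described. Of 92 further genes of microtubule assembly, modification and transport, 87 had a value and 83 passed the filter, with a median log2 ratio of -0.040, 49 below 0 and 34 above. With 5 added to each intensity, 1 (1.20%) was past 1.5-fold higher and 0 lower, against 3.81% and 2.17% of all genes. It was Fign, which encodes fidgetin, a severing enzyme, from 73.3 to 115.0 with a log2 ratio of 0.62. Ttll11, named after its values were seen, read 114.6 and 75.2. That is past 1.5-fold as read, but not with 5 added (-0.577, where the bound is 0.585 in log2 units). At the 25% bound, 4 were higher and 4 lower, 4.82% each, against the 11.2% and 8.6% of all genes. Most of the 83 had an intensity of at least 109.4, and of all genes that bright 6.15% were higher and 6.12% lower by that bound. Chosen after their values were seen, the other 3 higher ones were Nav1 at 0.40, Tubd1 at 0.34 and Katnal1 at 0.323, and the lower ones were Ttll11 at -0.58, Map1lc3a at -0.34, Bicd2 at -0.33 and Map1s at -0.33.

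By list, the gamma-tubulin ring complex, which nucleates microtubules, had a median of 0.081 with 7 of 9 above 0. Tubulin folding cofactors had -0.070 with 5 of 7 below, and plus- and minus-end proteins -0.076 with 8 of 14 below. Severing enzymes had a median of 0.11 over 6, tubulin-modifying enzymes, which add and remove tyrosine, glutamate and acetyl groups, -0.096 over 16, other MAPs -0.040 over 17, and dynein with its regulators -0.054 over 14.

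**Figure D5:**
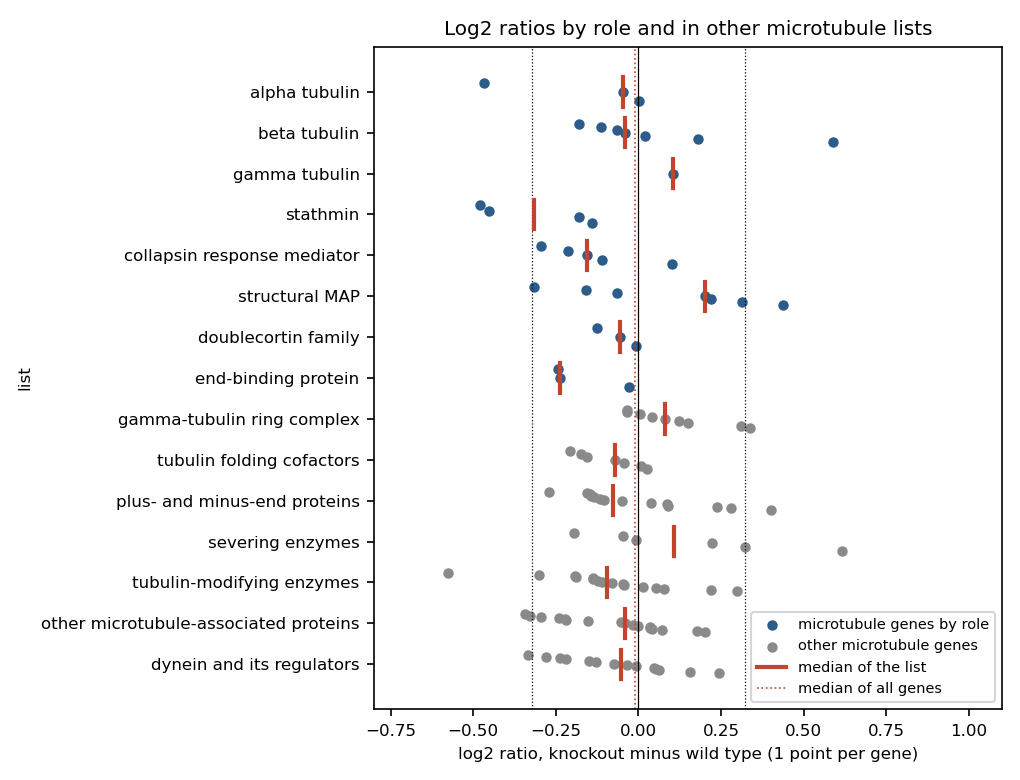
Log2 ratio of each gene past the filter (knockout minus wild type, 1 point per gene) by role for the 33 members and by list for the 83 further microtubule genes. Red bars are list medians, the dotted red line is the median of all genes at -0.012 and the dotted black lines mark the 25% bound; the 4 stathmins, by their brightest probe sets, have a median of -0.32 and all lie left of 0.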

How the data were processed

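The retina of 1 wild-type and 1 Sox11 knockout embryo was measured on 1 array each. The authors deposited 1 linear intensity per probe set and array, already scaled: the mean without 2% of the probe sets at each end was 100.0 on both arrays. The summarization software is not given in the sources used here. Detection calls were not used.

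The 64 control probe sets were left out of 45101. Log2(intensity + 5) was used, 5 being the pooled 25th percentile, with no further normalization. Symbols came from GEO's platform annotation, and the gene table and promoters from RefSeq, GRCm38.p6. Called means past 1.5-fold, or past 25%, with 5 added to each intensity, since no test was possible. Named were all 35 genes, Sox11, other microtubule genes past 1.5-fold, retina identity markers and other markers past 2-fold, with exceptions stated. The members, lists and rules were chosen with earlier results of these data known. The calculation was tested on simulated data (Python 3.11.15, pandas 2.3.3, numpy 2.4.6, and statsmodels 0.14.6 for loess). Alternatives changed normalization, pseudocount, filter and probe set choice.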

Additional observations from a re-analysis of the deposited data

How the results depend on the processing

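The median of the neuronal members stayed between -0.15 and -0.069 in the 9 alternatives. The count of genes at least 1.5-fold higher, 1 as reported, was 0 after centring, quantile normalization, loess, a pseudocount at the pooled median, or the median over probe sets, since Tubb6 lay at the bound (0.47 to 0.60). The count 1.5-fold lower, 0 as reported, was 1 without a pseudocount (Tuba8) and 1 without probe sets with an s, x or a suffix (Tubb5, at -0.60). The count lower by the 25% bound, 3 as reported, was 5 after centring, quantile normalization and loess. It was 4 without a pseudocount or without suffixed probe sets, and 2 with a pseudocount at the pooled median or the filter at 109.4. Stmn3 was not among the lower genes without suffixed probe sets or with the median over probe sets. The count higher by that bound, 2 as reported, was 1 with the filter at 109.4, which leaves out Map1a, and 3 with the median over probe sets (Tubb6, Map1b and Map7), where 1 of the 2 reported genes was shared. Without suffixed probe sets Tubb2a was lower by that bound, at -0.44. The sign differed between settings for 9 of the 33 genes (Dclk1, Dcx, Dpysl5, Map2, Mapre2, Stmn1, Tuba1a, Tubb3 and Tubb4b), and none past the 25% bound changed sign. Without suffixed probe sets Stmn1 was at 0.31 and Stmn3 at -0.035. With the median over probe sets Map1b was at 0.51, Map7 at 0.47, Dclk1 at 0.32 and Map2 at 0.20. No paired analysis was possible because each genotype had 1 array. The number of arrays limits the precision, and values near the filter are close to background.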

Other observations

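The 12 pan-neuronal genes, outside the microtubule families, had a median of -0.0092, with 6 above 0 and 6 below. Chosen after their values were seen, Gap43, a growth cone protein, read 1061.7 on the wild-type array and 1375.4 on the other, and Nefm, the medium neurofilament subunit, read 700.7 and 908.3, both with a log2 ratio of 0.37. They were the 2 of 12 pan-neuronal genes past the 25% bound higher, and none was past it on the lower side. The shares were 11.2% and 8.6% of all genes, and 6.15% and 6.12% of the genes with an intensity of at least 109.4, as all 12 had. Nefl, the light neurofilament subunit, read 1418.4 and 1426.7, a log2 ratio of 0.0084. Ina, from the same list, lay below 0, with 1695.0 and 1619.2 and a log2 ratio of -0.066.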
